A study of Mus musculus with 2 samples.

Results

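The genes described here are 9 that carry fatty acids and lipoproteins into cells or through them: Fabp3, Fabp4, Fabp5, Fabp7, Cd36, Msr1, Lpl, Vldlr and Lrp1. They were taken by symbol from the 31253 features of the count tables, and all 9 were found. The counts are single-cell RNA-seq UMIs (unique molecular identifiers, each standing for 1 captured transcript; BD Rhapsody) from infarcted mouse brain at 3 days after transient middle cerebral artery occlusion (tMCAO), which models a stroke. The design compares Hilpda cKO mice, a conditional knockout, with flox mice, which the design text calls WT, by 1 library each. Hilpda encodes a lipid droplet protein that restrains the breakdown of stored triglyceride. The strain, age, sex, Cre driver and number of animals behind each library were not given in the sources used here, and both groups underwent the occlusion. No test was made, since each group has 1 library. Library preparation cannot be told apart from genotype, and each interval given is a 95% interval of counting error only.

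Cells take up fat in several ways. Lipoprotein lipase, encoded by Lpl, splits the triglyceride of lipoproteins into free fatty acids, which enter cells with the help of the membrane protein CD36. Whole or modified lipoproteins are taken in by scavenger receptors such as MSR1 and CD36 and by receptors of the low density lipoprotein receptor family such as VLDLR and LRP1. Inside the cell the small fatty acid binding proteins (FABPs) carry fatty acids to membranes, droplets and the nucleus. In injured brain, phagocytes that clear myelin and dying cells take up much lipid by these routes.

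The Hilpda cKO library held 7382 barcodes with 70665440 UMIs, and the flox library held 8593 barcodes with 67864602 UMIs. After filtering and removal of doublets, 6984 Hilpda cKO cells (median 8741 UMIs) and 8065 flox cells (median 6997 UMIs) were kept. Before doublets were removed, 51 barcode sequences past the filters occurred in both libraries. The cells fell into 30 clusters, of which 29 were named as 16 classes from marker genes and 1 stayed unnamed. Of the classes, 8 had at least 100 cells in each library and were compared between the libraries. No cluster was named from the neuron markers. The members were left out of the genes used for clustering and of the markers, so that their levels did not set the classes directly. Over all cells the Hilpda level was 214 CPM (UMIs scaled to a fixed total) in Hilpda cKO and 273 CPM in flox. In microglia-like cells it was 222 CPM in Hilpda cKO and 103 CPM in flox, and in monocyte or macrophage-like cells 268 CPM in Hilpda cKO and 473 CPM in flox. The 3′ end that is counted need not be in the deleted part, so these levels do not check the labels.

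The lipase and the scavenger receptors lay mainly in myeloid cells. Lpl stood highest in microglia-like cells, though not in all of their clusters, and Cd36 in border-associated macrophage-like cells. Msr1 was high in microglia-like, monocyte or macrophage-like and border-associated macrophage-like cells alike. Among the carriers, Fabp5 was high in monocyte or macrophage-like cells and Fabp7 in astrocyte-like cells and oligodendrocyte precursor-like cells. Vldlr was found in oligodendrocyte-like cells and in the choroid plexus epithelial cell-like class and was almost absent from myeloid cells. Lrp1 had counts in every class.

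**Figure D1:**
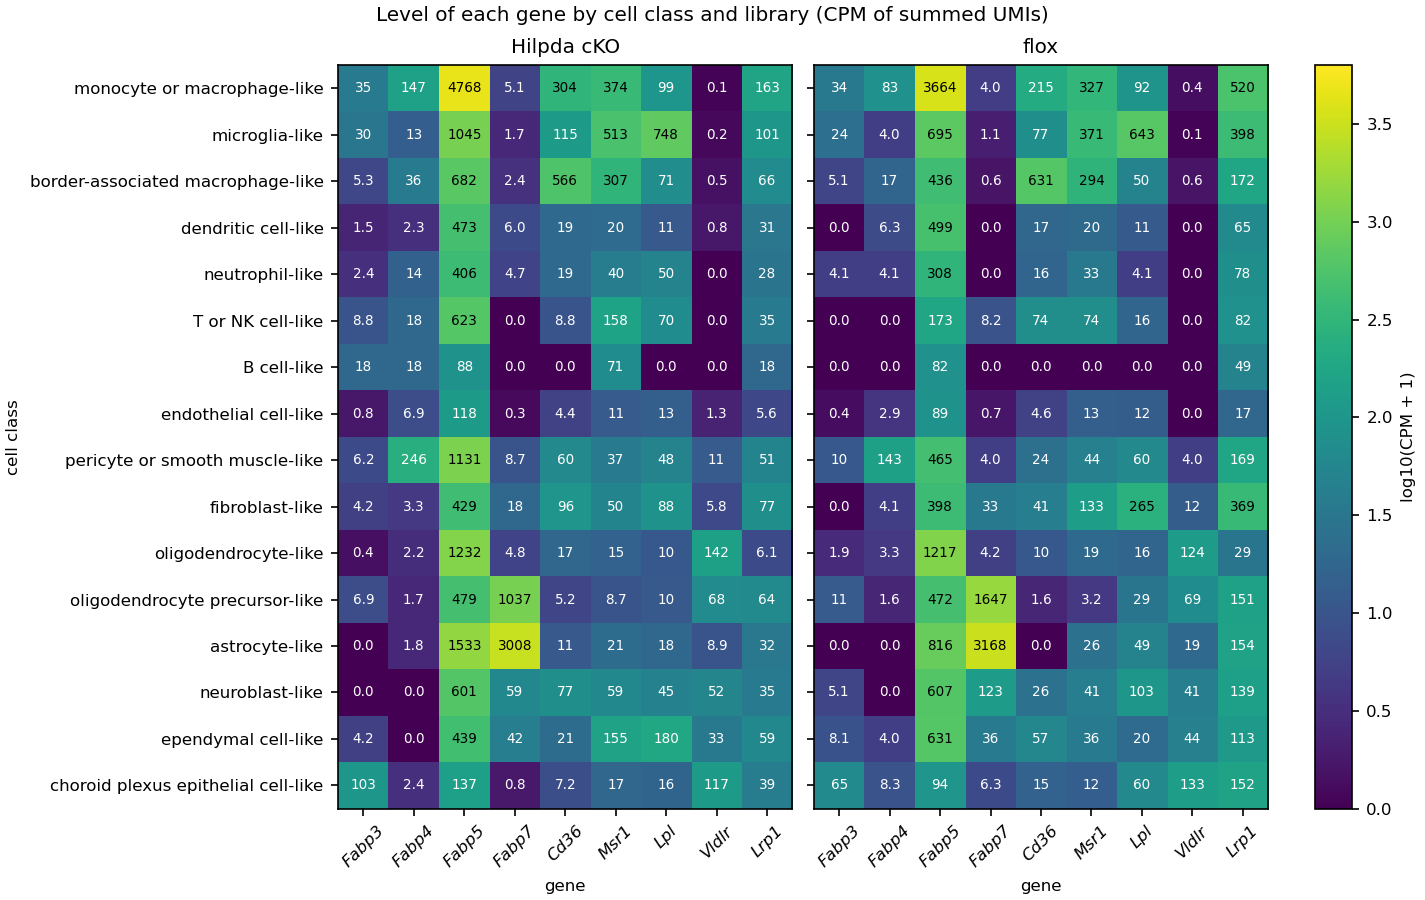
Level of the 9 genes (columns) in the 16 named cell classes (rows), Hilpda cKO on the left and flox on the right. Numbers are CPM of the UMI sums by class and library, and colour is log10(CPM + 1). Fabp5 is brightest in monocyte or macrophage-like cells (4768 CPM in Hilpda cKO and 3664 CPM in flox) and Fabp7 in astrocyte-like cells (3008 and 3168 CPM).

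Lpl (chromosome 8:68880491-68907448, plus strand, GRCm38) had 748.5 CPM in Hilpda cKO and 643 CPM in flox microglia-like cells. This class held 80.2% of all Lpl UMIs in Hilpda cKO and 81.5% in flox. The monocyte or macrophage-like class had 99.4 CPM in Hilpda cKO and 92.5 CPM in flox. Cells of 1000 or more UMIs were thinned to 1000, and shallower cells were left out of the thinned shares. After thinning, 34.5% of Hilpda cKO and 29.4% of flox microglia-like cells had an Lpl UMI. In unthinned cells, of median depths 14502.5 and 9103.5 UMIs, the shares were 75.7% and 64.5%. In neutrophil-like cells, taken as a class that should lack the gene, the thinned share was 2.56% in Hilpda cKO. In flox it was 0 of 119 cells, which allows up to 3.05%. The class had 299 Hilpda cKO and 203 flox cells before shallower cells were left out (median depths of 1300.0 and 1058 UMIs), so its thinned shares cover its deeper cells only.

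Within the microglia-like class Lpl differed between clusters. It reached 1072 CPM in Hilpda cKO and 974.5 CPM in flox in cluster 2, whose leading genes were Mmp12, Cd5l, Lpl and Spp1. In cluster 4, led by the resting microglia genes P2ry12 and Siglech, it was 106 CPM in Hilpda cKO and 127 CPM in flox. The clusters were filled differently in the libraries: cluster 4 held 289 of 1446 Hilpda cKO and 762 of 2172 flox microglia-like cells, and cluster 2 held 528 and 577. The log2 ratio of Hilpda cKO over flox for the class was 0.22 (0.19 to 0.25), and it was 0.02 when the clusters were given the same weight in both libraries. The intervals of the 5 clusters lay above 0 in 3 and below 0 in 2. Among the 7 monocyte or macrophage-like clusters they lay above 0 in 2 and below 0 in 2. In cluster 6 of that class Lpl had 192 CPM in Hilpda cKO and 238 CPM in flox, more than in the microglia-like cluster 4. Clusters, here and below, come from the same 2 libraries and are not replicates, and such intervals were not counted over all genes.

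Cd36 (chromosome 5:17781690-17888801, minus strand), a receptor for long-chain fatty acids and oxidised lipoproteins, had 566 CPM in Hilpda cKO and 631 CPM in flox border-associated macrophage-like cells. Monocyte or macrophage-like cells followed with 304 CPM in Hilpda cKO and 215 CPM in flox, and microglia-like cells with 115 CPM in Hilpda cKO and 77.1 CPM in flox. The first of these classes did not overlap with the next over the 2 libraries, nor did the second with the third. Because monocyte or macrophage-like cells were the most numerous, they held 71.2% of Cd36 UMIs in Hilpda cKO and 68.9% in flox. In endothelial cell-like cells Cd36 had 4.35 CPM in Hilpda cKO and 4.64 CPM in flox, under the 17.1 and 10.2 CPM of oligodendrocyte-like cells, which were taken as the background class for this gene.

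RefSeq (GRCm38.p6) start-site windows, from 250 bases before to 50 after the start, matched 5 of the 9 genes (Cd36, Fabp3, Fabp7, Lrp1 and Vldlr). Cd36 and Fabp7 are shown because one is high in phagocytes and the other in glia. Searched on both strands were TATAAA, the PU.1 (Spi1) core GAGGAA, the AP-1 site TGANTCA, the hypoxia response core ACGTG, the Sp1 box GGGCGG, a direct repeat bound by PPARs and the C/EBP site TTGCNNAA. Capitals mark the matches.
Cd36, chr5:17835847-17836146, minus strand: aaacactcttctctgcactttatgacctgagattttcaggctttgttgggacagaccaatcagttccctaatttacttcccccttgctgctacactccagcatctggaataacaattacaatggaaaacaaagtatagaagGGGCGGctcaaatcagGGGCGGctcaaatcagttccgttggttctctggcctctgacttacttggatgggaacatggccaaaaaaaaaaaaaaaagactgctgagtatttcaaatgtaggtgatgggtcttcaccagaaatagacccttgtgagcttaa
Fabp7, chr10:57784673-57784972, plus strand: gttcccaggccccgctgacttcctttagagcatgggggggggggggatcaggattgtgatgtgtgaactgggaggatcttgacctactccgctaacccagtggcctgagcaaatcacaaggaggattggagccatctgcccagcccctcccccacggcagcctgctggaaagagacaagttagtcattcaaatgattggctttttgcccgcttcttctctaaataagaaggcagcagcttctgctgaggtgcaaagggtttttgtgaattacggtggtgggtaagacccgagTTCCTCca
The Cd36 window held the Sp1 box at bases -109 and -93 from the start, inside a short stretch that is repeated. The Fabp7 window held the PU.1 core on the opposite strand at base 43. Of 32851 promoters of the same length, 35.7% held the Sp1 box and 28.3% the PU.1 core, so neither match is rare. The shares were 13.6% for TATAAA, 7.81% for AP-1, 19.6% for ACGTG, 0.0396% for the PPAR repeat and 10.8% for C/EBP. Lrp1 had the Sp1 box at -99, Vldlr the PU.1 core at -171 and the C/EBP site at -116 (and the Sp1 box at -42 in the window of its other start), and Fabp3 had no match.

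Cd36 was also uneven within monocyte or macrophage-like cells. Cluster 6, led by Gpnmb and Arg1 with Fabp4 and Cd36 themselves, had 667 CPM in Hilpda cKO and 572 CPM in flox. Cluster 14, led by the monocyte genes Ccr2, Chil3 and Plac8, had 26.4 CPM in Hilpda cKO and 52.5 CPM in flox. The ratio for the class was 0.50 (0.46 to 0.55), with the interval above 0 in 6 of 7 clusters and below 0 in cluster 14 alone. In microglia-like cells the ratio was 0.58 (0.49 to 0.67), or 0.42 with clusters weighted alike, and in border-associated macrophage-like cells it was −0.16 (−0.28 to −0.04).

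Msr1 (chromosome 8:39581685-39642673, minus strand), the class A scavenger receptor for modified low density lipoprotein, had 513 CPM in Hilpda cKO and 371 CPM in flox microglia-like cells. Monocyte or macrophage-like cells had 374 CPM in Hilpda cKO and 327 CPM in flox, so that these classes were not apart over the 2 libraries. Border-associated macrophage-like cells had 307 CPM in Hilpda cKO and 294 CPM in flox. All 3 classes stood far above oligodendrocyte-like cells, at 14.9 CPM in Hilpda cKO and 19.0 CPM in flox. In the resting cluster 4 Msr1 was at 17.4 CPM in Hilpda cKO and 21.7 CPM in flox, close to the level of oligodendrocyte-like cells, while in cluster 2 it was at 657 CPM in Hilpda cKO and 563 CPM in flox. The ratio was 0.47 (0.43 to 0.51) in microglia-like cells, or 0.27 with clusters weighted alike, and 0.19 (0.16 to 0.23) in monocyte or macrophage-like cells.

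Fabp4 (chromosome 3:10204088-10208576, minus strand), the carrier of adipocytes and macrophages, had 147 CPM in Hilpda cKO and 82.8 CPM in flox monocyte or macrophage-like cells. These cells held 88.6% of Fabp4 UMIs in Hilpda cKO and 92.0% in flox. Pericyte or smooth muscle-like cells had 246 CPM in Hilpda cKO and 143 CPM in flox, but from 117 and 108 cells, and 5 cells held 54.5% and 53.5% of those UMIs. Within monocyte or macrophage-like cells the level was 310 CPM in Hilpda cKO and 181 CPM in flox in cluster 6. It was 39.3 CPM in Hilpda cKO and 30.2 CPM in flox in cluster 7, led by Tgfbi and Acp5.

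Fabp4 differed more between the libraries than the other members that were higher in Hilpda cKO in the 2 largest classes. In microglia-like cells it had 12.6 CPM in Hilpda cKO and 3.998 CPM in flox (264 and 90 UMIs; log2 ratio 1.66, 1.31 to 2.02). The flox level lay within the interval of oligodendrocyte-like cells, at 2.19 CPM in Hilpda cKO and 3.25 CPM in flox, and the Hilpda cKO level lay above it. The share of thinned microglia-like cells with a Fabp4 UMI was 1.33% (0.80% to 2.06%) in Hilpda cKO and 0.51% (0.26% to 0.91%) in flox, with overlapping intervals (6.92% and 2.62% before thinning). The summed level of the 10 monocyte or macrophage markers in microglia-like cells was 1681 CPM in Hilpda cKO and 2295 CPM in flox, and that of the 8 border-associated macrophage markers was 214 CPM in Hilpda cKO and 131.5 CPM in flox. The part of these markers in the Fabp4 difference was not tested. Mast cell markers had 75.1 CPM in Hilpda cKO (5 of 5 with UMIs) and 0.3998 CPM in flox (1 of 5) in this class. Of their 1570 UMIs in Hilpda cKO, 1554 were in 1 cell, of cluster 12, which had 0 Fabp4 UMIs. Only 2 of the 5 microglia-like clusters had 30 or more Fabp4 UMIs. In cluster 2 Fabp4 was at 17.7 CPM in Hilpda cKO and 3.52 CPM in flox (2.33, 1.74 to 2.96), and in cluster 5 at 12.3 CPM in Hilpda cKO and 6.11 CPM in flox (1.01, 0.48 to 1.55). For the class the ratio was 1.35 with clusters weighted alike, 1.18 with single cells gated by their markers and 0.68 relative to the other classes.

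In monocyte or macrophage-like cells the Fabp4 ratio was 0.82 (0.75 to 0.89), and the interval lay above 0 in 5 of the 6 clusters with enough counts. With clusters weighted alike the ratio was 0.73, and relative to the other classes it was −0.38. Thinned shares were 7.87% in Hilpda cKO and 5.25% in flox (28.5% and 20.7% in unthinned cells, whose median depths were 9973 and 7931 UMIs), against 0.346% and 0.362% in oligodendrocyte-like cells (4893 and 4530.0 UMIs). In border-associated macrophage-like cells Fabp4 had 36.4 CPM in Hilpda cKO and 16.5 CPM in flox (1.14, 0.50 to 1.81), from 75 and 29 UMIs.

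Fabp5 (chromosome 3:10012548-10016607, plus strand), the widely expressed carrier first known from skin, was the most counted member, with 181846 UMIs in Hilpda cKO and 133783 in flox. Monocyte or macrophage-like cells had 4768 CPM in Hilpda cKO and 3664 CPM in flox. Next came oligodendrocyte-like cells with 1232 CPM in Hilpda cKO and 1217 CPM in flox. Astrocyte-like cells followed with 1533 and 817 CPM, and microglia-like cells with 1045 and 695 CPM. Neighbours among these 3 classes were not apart in this order, but oligodendrocyte-like cells were apart from microglia-like cells. Endothelial cell-like cells had 118 CPM in Hilpda cKO and 88.6 CPM in flox. Mouse Fabp5 has processed pseudogenes, and the handling of reads that match several places was not given in the sources used here.

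Across myeloid clusters Fabp5 spanned a wide range. It reached 6829 CPM in Hilpda cKO and 5726 CPM in flox in cluster 6, and stood at 370 CPM in Hilpda cKO and 247 CPM in flox in the monocyte cluster 14. Among microglia-like clusters it was at 1372 CPM in Hilpda cKO and 1122 CPM in flox in cluster 2 and at 105 CPM in Hilpda cKO and 80.1 CPM in flox in cluster 4. The interval of the ratio lay above 0 in 7 of 7 monocyte or macrophage-like clusters (log2 ratios of 0.25 to 0.58) and in 5 of 5 microglia-like clusters (0.24 to 0.57). These differences are below 2-fold. The class ratios were 0.38 (0.37 to 0.39) in monocyte or macrophage-like, 0.59 (0.56 to 0.62) in microglia-like and 0.64 (0.52 to 0.77) in border-associated macrophage-like cells. Relative to the other classes they were −0.04, 0.19 and 0.24. The interval also lay above 0 in endothelial cell-like (0.417, 0.192 to 0.646) and neutrophil-like cells (0.401, 0.00149 to 0.812). The same held for pericyte or smooth muscle-like cells (1.28), which are described below. In dendritic cell-like (−0.08, −0.24 to 0.08) and oligodendrocyte-like cells (0.02, −0.06 to 0.09) the interval included 0. Without the Ccr7-led cluster the dendritic cell-like ratio was −0.75.

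**Figure D2:**
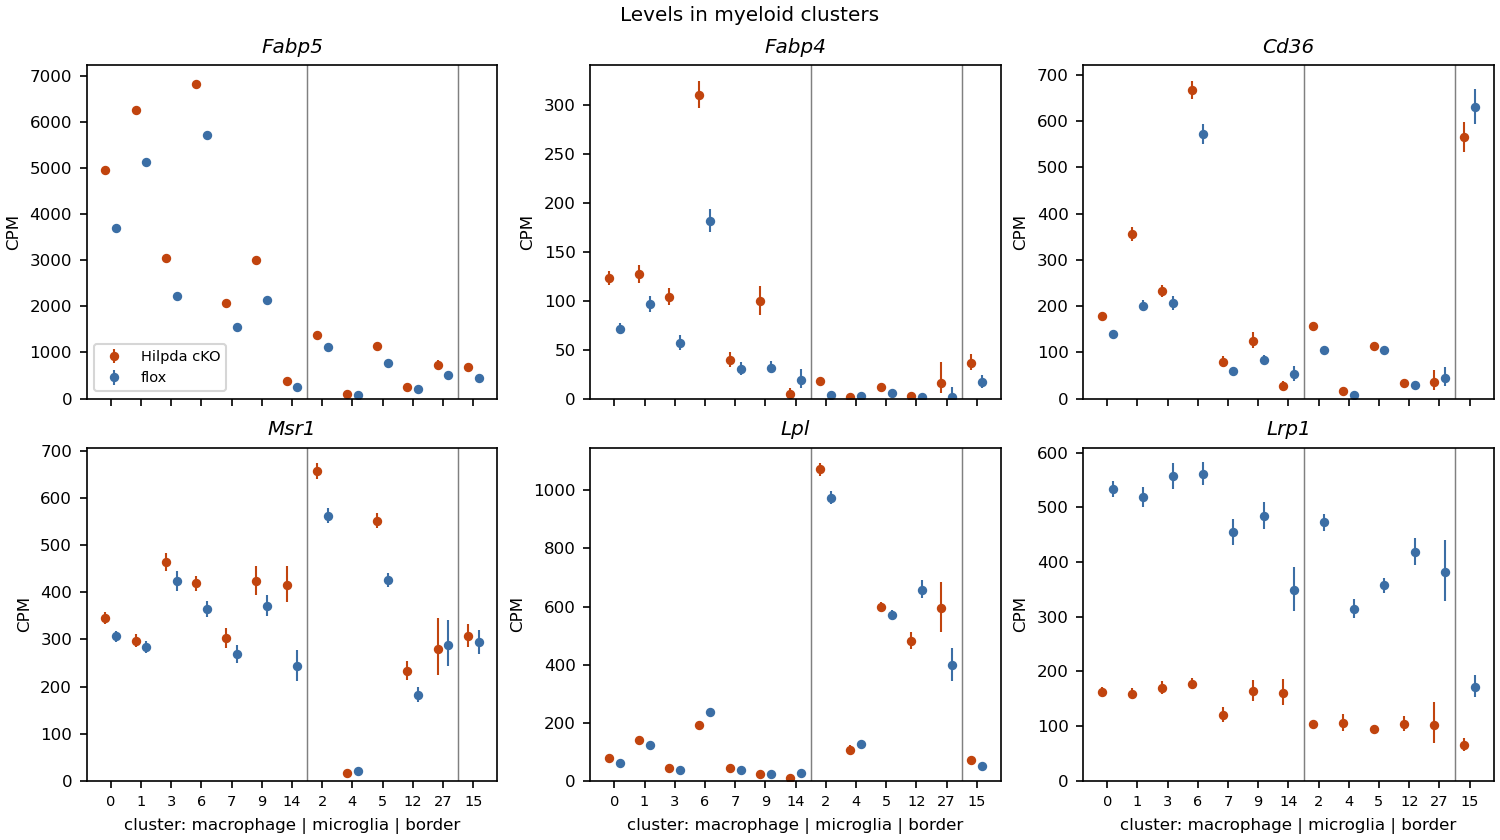
Level of 6 of the genes (CPM, linear axes from 0) in the myeloid clusters, Hilpda cKO in red and flox in blue, with 95% Poisson intervals. Clusters left of the first line are monocyte or macrophage-like, those between the lines are microglia-like and cluster 15 is border-associated macrophage-like. Fabp5 and Fabp4 peak in cluster 6, Cd36 in clusters 6 and 15, Lpl and Msr1 in cluster 2, and Lrp1 is higher in flox in each of these clusters.

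Fabp3 (chromosome 4:130308595-130315463, plus strand), the heart-type carrier, was highest in choroid plexus epithelial cell-like cells, at 103 CPM in Hilpda cKO and 64.6 CPM in flox. The monocyte or macrophage-like class had 35.3 CPM in Hilpda cKO and 33.7 CPM in flox, and microglia-like cells had 30.04 CPM in Hilpda cKO and 23.5 CPM in flox. The ratio was 0.07 (−0.05 to 0.19) in the first of these myeloid classes and 0.35 (0.19 to 0.52) in the other. Fabp3 overlaps Zcchc17 and a gene model on the opposite strand, and the use of strand in counting was not given in the sources used here.

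Fabp7 (chromosome 10:57784881-57788450, plus strand), the brain-type carrier of radial glia and astrocytes, had 3008 CPM in Hilpda cKO and 3168 CPM in flox astrocyte-like cells. Oligodendrocyte precursor-like cells had 1037 CPM in Hilpda cKO and 1647 CPM in flox, neuroblast-like cells 59.4 and 123 CPM, and ependymal cell-like cells 41.8 and 36.4 CPM. The levels of the 2 libraries did not overlap between neighbours in this order, but the counting intervals of neuroblast-like (34.6 to 95.1 CPM) and ependymal cell-like cells (20.04 to 76.9 CPM) overlapped in Hilpda cKO. In the 8 compared classes Fabp7 was at or under 8.70 CPM. Only 90 Hilpda cKO and 47 flox cells were astrocyte-like and 38 and 50 were oligodendrocyte precursor-like, so these levels were not compared between the libraries. These 2 classes held 65.5% and 23.1% of Fabp7 UMIs in Hilpda cKO, and 39.8% and 48.6% in flox.

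Vldlr (chromosome 19:27216484-27254231, plus strand), a receptor for apolipoprotein E-rich particles and for reelin, had 141.5 CPM in Hilpda cKO and 124.5 CPM in flox oligodendrocyte-like cells (323 and 268 UMIs). Choroid plexus epithelial cell-like cells had 117 CPM in Hilpda cKO and 133 CPM in flox, not apart from oligodendrocyte-like cells, and oligodendrocyte precursor-like cells 67.6 and 68.9 CPM. In monocyte or macrophage-like cells Vldlr had 3 UMIs in Hilpda cKO and 12 in flox, and in microglia-like cells 4 and 2. The ratio in oligodendrocyte-like cells was 0.18 (−0.05 to 0.42), an interval that includes equal levels.

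**Figure D3:**
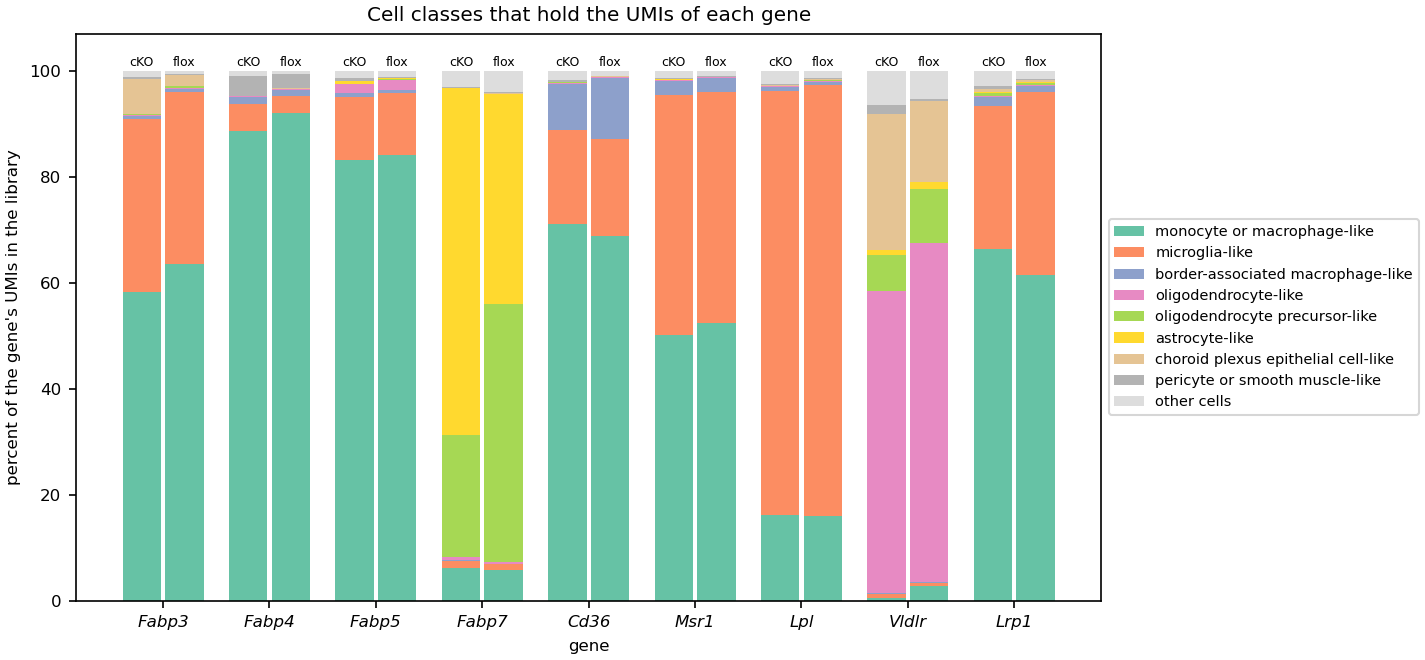
Percent of each gene's UMIs in a library (vertical axis) held by each cell class (colours), with Hilpda cKO left of flox for each gene. Monocyte or macrophage-like cells hold 83.1% and 84.0% of Fabp5 UMIs, microglia-like cells 80.2% and 81.5% of Lpl, and oligodendrocyte-like cells 57.0% and 64.0% of Vldlr.

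Lrp1 (chromosome 10:127538161-127621148, minus strand), a large endocytic receptor for remnant lipoproteins and protease complexes, differed most between the libraries, and in every class compared. Monocyte or macrophage-like cells had 163 CPM in Hilpda cKO and 520 CPM in flox (−1.67, −1.72 to −1.63), and microglia-like cells 100.8 CPM in Hilpda cKO and 398.5 CPM in flox (−1.98, −2.05 to −1.91). Border-associated macrophage-like cells had 66.1 CPM in Hilpda cKO and 172 CPM in flox (−1.38). Oligodendrocyte-like cells had 6.13 CPM in Hilpda cKO and 28.8 CPM in flox (−2.23), and endothelial cell-like cells 5.63 CPM in Hilpda cKO and 17.1 CPM in flox (−1.61). The ratios were −1.73 in pericyte or smooth muscle-like, −1.46 in neutrophil-like and −1.07 in dendritic cell-like cells. All 7 monocyte or macrophage-like and all 5 microglia-like clusters had intervals below 0.

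The thinned share of cells with an Lrp1 UMI was 17.4% in Hilpda cKO and 38.6% in flox monocyte or macrophage-like cells (72.7% and 91.7% before thinning). In microglia-like cells it was 10.3% in Hilpda cKO and 30.9% in flox (68.9% and 84.5% before thinning). The neutrophil-like class stood at 2.56% in Hilpda cKO and 5.88% in flox. Set against the median Lrp1 ratio of the other 7 compared classes, the microglia-like ratio was −0.38 and the monocyte or macrophage-like ratio −0.07. Most of the Lrp1 difference was thus also present in the median of the other classes. Some of those had low levels: neutrophil-like cells had 28.3 CPM in Hilpda cKO and 77.9 CPM in flox, and oligodendrocyte-like and endothelial cell-like cells had less. Whether the UMIs counted there came from those cells themselves was not tested.

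Genes with GC-rich 3′ ends were lower in Hilpda cKO as a group. In genes whose last 500 nt had 60 to 62.5% GC, the median log2 ratio was −1.13 in monocyte or macrophage-like and −1.20 in microglia-like cells, and 56.2% and 61.1% of those genes were at least 2-fold lower. Lrp1 has 51.8% GC there. Among genes within 2.5 points of it, the median ratio was 0.03 in monocyte or macrophage-like and 0.02 in microglia-like cells, and 7.40% and 7.61% were at least 2-fold lower. The part of library preparation in the Lrp1 difference cannot be told apart from genotype. An antisense gene model overlaps Lrp1.

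**Figure D4:**
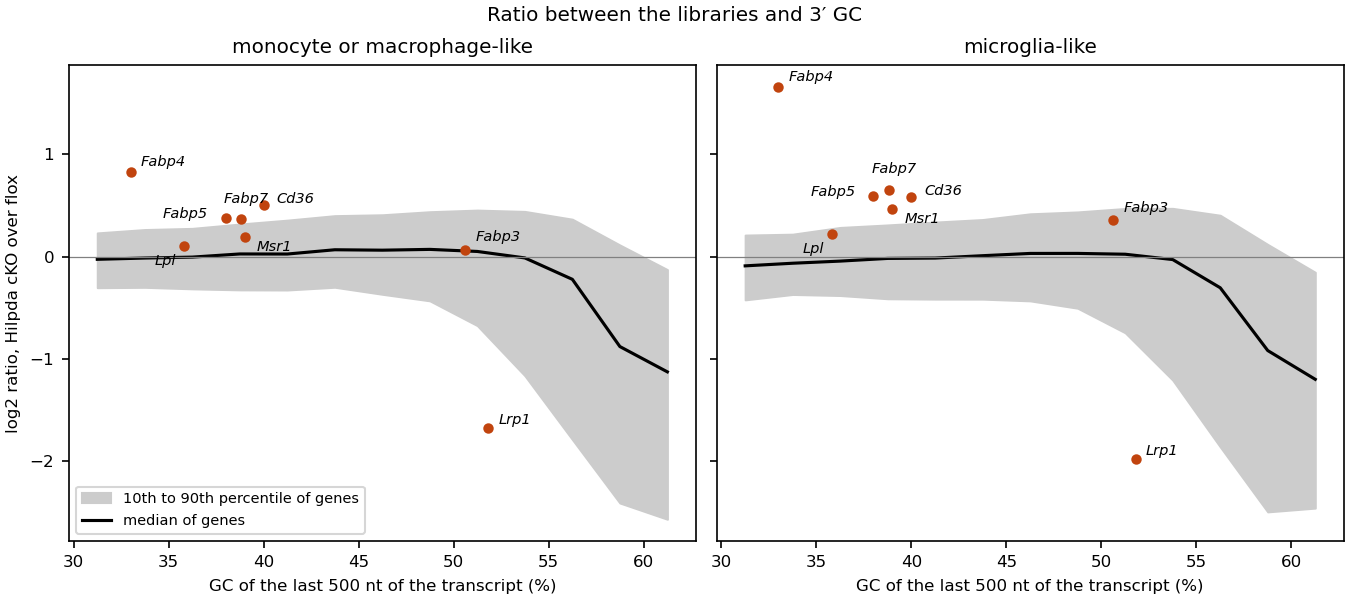
Log2 ratio of Hilpda cKO over flox (vertical axis) against the GC content of the last 500 nt of the transcript (horizontal axis, percent) in monocyte or macrophage-like and microglia-like cells. The line is the median and the band the 10th to 90th percentile of all measured genes in bins of 2.5 points, and red points are the members with at least 30 UMIs. Lrp1, at 51.8% GC, lies under the band at −1.67 and −1.98, and Fabp4, at 33.0% GC, lies above it at 0.82 and 1.66.

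A pair of a gene and a class passed the size rule if the libraries differed 2-fold or more, the class had 30 or more UMIs of the gene in all, and the interval excluded equal levels. By it 1 member, Lrp1, was lower in Hilpda cKO in 8 of 8 classes. Some of these rest on few UMIs: 12 in Hilpda cKO and 19 in flox neutrophil-like cells, 14 and 62 in oligodendrocyte-like cells, and 22 and 48 in endothelial cell-like cells. The oligodendrocyte-like and endothelial cell-like levels lay under those of neutrophil-like cells. The share of all measured genes lower by the same rule was 5.27% in monocyte or macrophage-like, 5.8% in microglia-like, 7.23% in endothelial cell-like, 5.13% in oligodendrocyte-like, 4.89% in dendritic cell-like, 3.96% in neutrophil-like, 4.95% in border-associated macrophage-like and 4.64% in pericyte or smooth muscle-like cells. Over all cells Lrp1 was again the only member past the rule (−1.81), where 5.27% of genes were lower and 2.76% higher.

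By the same rule 5 pairs of a member and a class were higher in Hilpda cKO. They were Fabp4 in microglia-like cells, where 0.78% of genes were higher, in endothelial cell-like cells (0.835% of genes) and in border-associated macrophage-like cells (1.24%), and Fabp5 and Cd36 in pericyte or smooth muscle-like cells (3.4%). No member was higher by this rule in monocyte or macrophage-like (0.658% of genes), oligodendrocyte-like (1.08%), dendritic cell-like (0.831%) or neutrophil-like cells (2.6%). At 1.5-fold 9 pairs were higher: Fabp4 in monocyte or macrophage-like (2.62% of genes) and pericyte or smooth muscle-like cells (7.17%) and Fabp5 in microglia-like (2.89%) and border-associated macrophage-like cells (3.93%) joined the 5. Fabp5 in microglia-like cells passed narrowly, at 0.59. It was under 1.5-fold with doublets kept (0.55), at resolution 2 (0.56), with single cells gated (0.50) and with clusters weighted alike (0.39). The 1.5-fold shares of genes were 3.12% in endothelial cell-like, 3.6% in oligodendrocyte-like, 3.3% in dendritic cell-like and 5.48% in neutrophil-like cells.

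Not all 5 rest on many cells. Cd36 in pericyte or smooth muscle-like cells had 48 UMIs in Hilpda cKO and 12 in flox, of which 1 Hilpda cKO cell held 41. Without the cell of most UMIs in each library the ratio was −0.69 (−2.43 to 1.05). Fabp4 in endothelial cell-like cells rests on 27 UMIs in Hilpda cKO and 8 in flox, at levels of 6.92 and 2.86 CPM near the background class. Fabp5 in pericyte or smooth muscle-like cells had 1131 CPM in Hilpda cKO and 465 CPM in flox (1.28, 1.07 to 1.497). Without the cell of most UMIs in each library the ratio was also 1.28. However, 5 cells held 60.9% of those UMIs in Hilpda cKO and 53.7% in flox. Over the alternative settings the ratio ran from 0.79, which is under 2-fold, to 1.33. In the same class Cd68 (1.45), Stab1 (1.52), Apoe (1.20) and Cxcl16, of the lipid uptake lists described below, were also higher past the rule. Lrp5 and Ppard of those lists were lower past it. The members Msr1 (−0.25, −1.09 to 0.62) and Lpl (−0.32, −1.04 to 0.42) lay below 0 there with intervals that included 0. The summed level of the border-associated macrophage markers there was 209 CPM in Hilpda cKO and 96.6 CPM in flox, that of the monocyte or macrophage markers 2240.0 and 2121 CPM, and that of the microglia markers, which include the pericyte-expressed Sparc, 8561 and 6921 CPM. Their part in the Fabp5 difference was not tested.

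**Figure D5:**
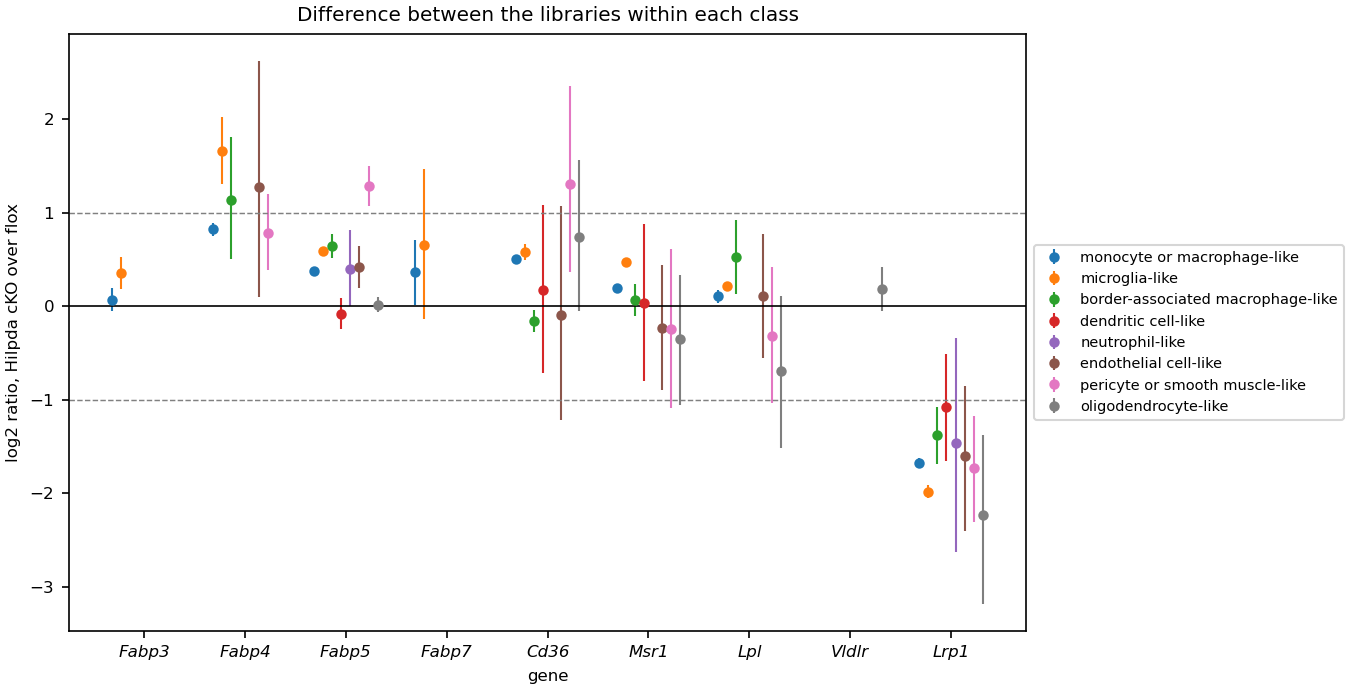
Log2 ratio of Hilpda cKO over flox (vertical axis) for each gene and each of the 8 compared classes (colours), with 95% counting intervals, where both libraries together had at least 30 UMIs. Dashed lines mark 2-fold. Lrp1 lies below the lower line in all 8 classes, and Fabp4 lies above 0 in each class shown.

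Shares of thinned cells gave 10 of 72 pairs with intervals that did not overlap, all among the 46 pairs with 30 or more UMIs. Over all genes, 3.28% of the 66524 pairs of a gene and a class with 30 or more UMIs were lower in Hilpda cKO in this way and 1.89% higher, against 6.52% and 15.2% of the members' 46. In unthinned cells 4.16% of those gene and class pairs were lower and 21.8% higher, against 10.9% and 32.6% for the members, so that the higher shares there lie nearer the background. Intervals are narrower for genes with more UMIs, and the background was not matched on level. By thinned shares, Lrp1 was lower in Hilpda cKO in 3, the monocyte or macrophage-like, microglia-like and border-associated macrophage-like classes. The other 7 were higher: Fabp4, Fabp5, Cd36 and Msr1 in monocyte or macrophage-like cells and Fabp5, Msr1 and Lpl in microglia-like cells. The microglia-like shares carry the different filling of the clusters, and the Lpl ratio of that class was 0.02 with clusters weighted alike. Fabp5 had thinned shares of 77.3% in Hilpda cKO and 72.5% in flox monocyte or macrophage-like cells (90.2% and 87.8% before thinning), against 27.8% and 23.5% in neutrophil-like cells.

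Other genes of lipid uptake were read from 6 lists with 76 genes. In monocyte or macrophage-like cells 53 were measured and their median log2 ratio was −0.01, against 0.01 over all genes and 0.28 over the 8 members measured. In microglia-like cells 51 were measured with a median of 0.08, against −0.03 over all genes and 0.52 over the 8 members measured. Past the size rule, Lmf1, which matures lipases, was lower in Hilpda cKO in both classes (−1.55 and −1.45), as was Tfeb, a regulator of lysosome genes (−2.01 and −1.90). Genes of their 3′ GC content had medians of −0.93 and −1.01 for Lmf1 and −1.05 and −1.09 for Tfeb. The receptor Lrp5 was lower in monocyte or macrophage-like cells (−1.04) and the fatty acid sensor Ppard in microglia-like cells (−1.04).

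Of the 15 scavenger receptors, 8 were measured in microglia-like and 11 in monocyte or macrophage-like cells. Colec12 (1.07) and Mrc1 (1.04) were higher in Hilpda cKO microglia-like cells and Cd163 (1.23, from 58 and 24 UMIs) in monocyte or macrophage-like cells. Mrc1 and Cd163 are also border-associated macrophage markers. Of the 8 other intracellular carriers only 3 were measured in each class, and of the 14 membrane transport and activation genes 9 in microglia-like and 8 in monocyte or macrophage-like cells. None of those measured passed the rule in either class. The most counted genes of the lists had log2 ratios near 0 over all cells: Apoe (−0.19), Dab2 (−0.05), Cd68 (0.10), Stab1 (0.22), Lipa (0.15), Furin (0.25), Slc27a1 (0.21), Got2 (0.22), Dbi (0.25) and Scp2 (0.06). Nr1h2 (−0.74) and Ppard (−0.85) stood lower in Hilpda cKO, short of 2-fold.

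The genes most like each member were ranked by Pearson r of log2(CPM + 10) over 16 points, 8 classes in 2 libraries, among 5790 genes, as a description in which points share a library. Msr1 was like Adgre1 (0.98) and Slc7a8 (0.98), and Cd36 most like Arhgap19 (0.97), Siglec1 (0.96) and Maf (0.96). Lpl was most like Cd180 (0.91), Ctsl (0.90) and Spp1 (0.90). Vldlr was most like Prrt1, Nap1l5 and Glrb (0.998, 0.997 and 0.995), Fabp3 like Tpi1 (0.96), Galns (0.93) and Cdo1 (0.91), and Fabp5 like Igsf8 (0.90), Psap (0.89) and Pgam1 (0.89). Lrp1 was most like Ftl1 (0.89), Zfp703 (0.87) and Ctsd (0.87), and Fabp4 like H6pd (0.87), Arhgap10 (0.86) and Ugp2 (0.84). For Fabp7, at or under 8.70 CPM in these 8 classes, the best value was 0.75, with Stip1, followed by Psmb5 (0.72) and Atp5pb (0.72). Between members, Cd36 and Msr1 had 0.89 and Fabp4 and Msr1 0.36.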

How the data were processed

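The deposited tables hold raw UMI counts, not normalized. The submitters' processing notes name CASAVA 1.8, STARsolo, Seurat and mm10. Annotation, counter settings and cell caller were not given in the sources used here. Before filtering, the lowest barcode total was 500 UMIs in both libraries. GENCODE vM21 (GRCm38) gave coordinates and 3′ ends for 31107 of 31253 features.

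Cells needed 500 UMIs, 200 genes and a mitochondrial share of 25% or less. Scrublet (scanpy 1.11.5, expected rate 6%) marked 142 Hilpda cKO (1.99%) and 210 flox (2.54%) cells as doublets, which were left out. Cells were clustered together without integration on 2000 variable genes without the members, Hilpda, sex-linked, mitochondrial, ribosomal and haemoglobin genes (30 principal components, 20 neighbours, leidenalg 0.10.2 at resolution 1). Clusters were named from fixed markers of 19 classes; the naming thresholds were revised after the clusters were seen.

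UMIs were summed per class and library as CPM, with exact Poisson, Clopper-Pearson and conditional 95% intervals. Ratios are Hilpda cKO over flox. Calculations were tested on simulated counts. The members and lists were chosen with earlier results of these data known. The genes named are the members, list genes past the size rule in microglia-like or monocyte or macrophage-like cells, the 2 most counted of each list, and the 3 most like each member, of which 1 is not reported here. Cluster leading genes and the list genes in pericyte or smooth muscle-like cells were named after their values were seen.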

Additional observations from a re-analysis of the deposited data

Results flagged for a closer look

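The unnamed cluster 16, with 175 Hilpda cKO and 192 flox cells of low depth (medians of 781 and 794 UMIs), is outside every comparison above. The flag was applied to Lpl and Fabp7 only, for more than 3 UMIs in a library, with no background class compared. Lpl had 961 CPM in Hilpda cKO and 458 CPM in flox, and Fabp7 had 76.5 CPM in Hilpda cKO and 180 CPM in flox. Other members had counts there too: Fabp5 had 1327 CPM in Hilpda cKO and 796 CPM in flox, Msr1 463.5 and 248 CPM, and Cd36 166 and 55.6 CPM. The leading genes of the cluster included Alas2, Ankrd1, Tnnt2 and Lpl itself. Its best match was microglia (score 0.339, next 0.0641), with summed microglia markers at 9942 CPM in Hilpda cKO and 13240 CPM in flox. Summed erythroid cell markers stood there at 3474 CPM in Hilpda cKO and 23400 CPM in flox. Which cells the UMIs of the members came from was not tested. The cluster was left unnamed because its depth was low and no microglia marker was among its leading genes, while the erythroid marker Alas2 was.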

How the results depend on the processing

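No paired analysis was possible because each group has 1 library and the labels give no replicate numbers. The count of 8 lower pairs, all Lrp1, was 5 with single cells gated by their markers (6 classes left), 5 at 100 UMIs or more (chosen after seeing the data) and 0 for ratios relative to the other classes. The count of 5 higher pairs was 2 at no more than 10% mitochondrial UMIs, 3 at 1000 UMIs or more per cell and 2 at resolution 0.5 (7 classes left in each). It was 3 at 100 UMIs or more, 9 at 1.5-fold and 0 relative to the other classes. Without thinning, share intervals of 21 of the 72 pairs did not overlap in place of 10. Of the 46 pairs with 30 or more UMIs, 15 were higher (32.6%) and 5 lower (10.9%). Over all genes, 21.8% of the gene and class pairs with 30 or more UMIs were higher and 4.16% lower. Fabp4 in endothelial cell-like cells was −0.47 at resolution 0.5 and −0.26 with single cells gated, and Cd36 in pericyte or smooth muscle-like cells −0.63 at resolution 2. Relative to the other classes Lrp1 was 0.0684 in endothelial cell-like, 0.60 in dendritic cell-like, 0.21 in neutrophil-like and 0.29 in border-associated macrophage-like cells. The ratios with clusters weighted alike and those without the Ccr7-led cluster were also chosen after seeing the data. The cause of these shifts was not tested, except that the relative ratio removes what classes share by its construction. TMM scaling (the trimmed mean of M-values) moved all ratios of endothelial cell-like cells by 0.14 and those of each other class by less than 0.1. Of the single ratios under alternatives, 374 stayed within the interval of the reported ratio, 70 lay outside it, and 7 that had been past the size rule changed sign.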
